A study of Sus scrofa with 15 samples.

Results

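The genes described here are 2 hormones of fat cells, adiponectin (ADIPOQ) and leptin (LEP), their receptors ADIPOR1, ADIPOR2 and LEPR, and C1QTNF3, a secreted relative of adiponectin. Genes were selected on probe detection: array probes were taken whose listed gene name was 1 of these 6 and whose signal passed the scanner's flag for well above background on at least 7 of 15 arrays. Of 17 such probes among 43603 on the array, 16 met the rule, and they covered 5 of the 6 genes: 8 probes for ADIPOQ, 3 for ADIPOR2, 2 each for ADIPOR1 and LEP, and 1 for C1QTNF3. The LEPR probe was well above background on 0 of 15 arrays. The probe nearest to the limit among those kept was 1 of ADIPOQ at 14 arrays, and the remaining 15 probes were above background on all 15. Detection chose the probes and is not a finding. C1QTNF3 was listed with its difference between the lines already known, so its difference is given as a description and supports nothing further.

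The samples were Longissimus muscle, the long muscle of the back, from pigs weighing 20 kg. The low_RFI group (RFIneg, n = 7) and the high_RFI group (RFIpl, n = 8) come from strains that differ in residual feed intake, the feed eaten beyond what growth and maintenance are predicted to require. Both strains had free access to feed, and each pig was measured on its own one-colour array from 150 ng of total RNA. The sex, age and litter of the pigs were not given in the sources used here. The level of a probe below is the log2 of its processed signal minus the 75th percentile of that array, so a difference of 1 is a doubling. Levels of different genes are not set against each other.

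Adiponectin is released into the blood by fat cells and belongs to the C1q and TNF related family, whose members carry a globular domain like that of complement C1q. It acts through ADIPOR1 and ADIPOR2, membrane receptors whose signalling in muscle runs through the adaptor APPL1, AMP-activated kinase and PPAR alpha towards fatty acid oxidation. Leptin is released in proportion to body fat and reports energy stores to the brain through LEPR, which signals by JAK2 and STAT3. In muscle the fat cells lie between fibres and fibre bundles, and muscle fibres themselves carry adiponectin receptors.

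The muscle identity of the samples was borne out by 16 tested muscle fibre markers, whose mean level was 9.09 in low_RFI and 9.09 in high_RFI. On each array 61.7% to 79.5% of probes passed the background flag, and levels correlated between arrays at 0.974 to 0.991 across probes. The arrays lay on 4 slides, each holding both lines, and the array names carried numbers 1 to 8 (8 pigs) or 55 to 62 (7 pigs), each run holding both lines. The mean of 4 leukocyte markers stood apart in 1 pig of each line, at -0.23 in low_RFI replicate 6 and -0.36 in high_RFI replicate 5, against -2.17 to -1.46 in the remaining 13 pigs. Without the first of these pigs the C1QTNF3 difference described below was 0.77, and without the other 0.78.

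Of the 17 probes, 8 are shown, to say which stretch of a transcript was measured and because some of them overlap. Probes are named by the start position listed for them in their transcript, and sequences run 5′ to 3′ as deposited. For ADIPOQ the capitals in the second probe mark the TGA stop triplet, with 9 bases after it. For ADIPOR2 the capitals mark the 55 bases that both probes share, so these probes read almost the same stretch and are not independent. For C1QTNF3 only the first 30 bases of the probe are printed.
C1QTNF3 probe 2978: agtgccttggaataagatattggcgtggct
ADIPOQ probe 484: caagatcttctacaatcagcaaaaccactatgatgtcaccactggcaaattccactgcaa
ADIPOQ probe 770: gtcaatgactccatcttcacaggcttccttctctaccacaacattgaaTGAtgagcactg
ADIPOR1 probe 605: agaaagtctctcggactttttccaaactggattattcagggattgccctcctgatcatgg
ADIPOR1 probe 973: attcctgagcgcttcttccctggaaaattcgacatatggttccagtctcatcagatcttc
ADIPOR2 probe 708: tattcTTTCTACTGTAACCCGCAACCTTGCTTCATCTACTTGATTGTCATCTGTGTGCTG
ADIPOR2 probe 713: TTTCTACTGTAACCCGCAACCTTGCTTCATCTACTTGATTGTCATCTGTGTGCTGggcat
LEP probe 1074: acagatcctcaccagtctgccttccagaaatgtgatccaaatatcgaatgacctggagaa

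C1QTNF3, a secreted protein made by fat and cartilage cells among others, spans 20032973 to 20059905 of chromosome 16 in the pig assembly Sscrofa11.1. Its probe gave processed intensities of 1469 to 2574 with a median of 2176 in the low_RFI pigs, and of 831 to 1571 with a median of 1246 in the high_RFI pigs. The groups nearly separated: the low_RFI pig was higher in 53 of 56 pairs of pigs from opposite lines. As background for that count, 0.255% of 31718 probes had at least as many pairs with low_RFI higher. The exceptions were low_RFI replicate 1, at a level of 1.90, which lay below high_RFI replicates 7 and 8 at 2.22 and 1.95, and low_RFI replicate 2, which lay below high_RFI replicate 7 alone. The plot of C1QTNF3 by line marks the slide of each pig, and high_RFI pigs of all 4 slides lay in the lower part.

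**Figure D1:**
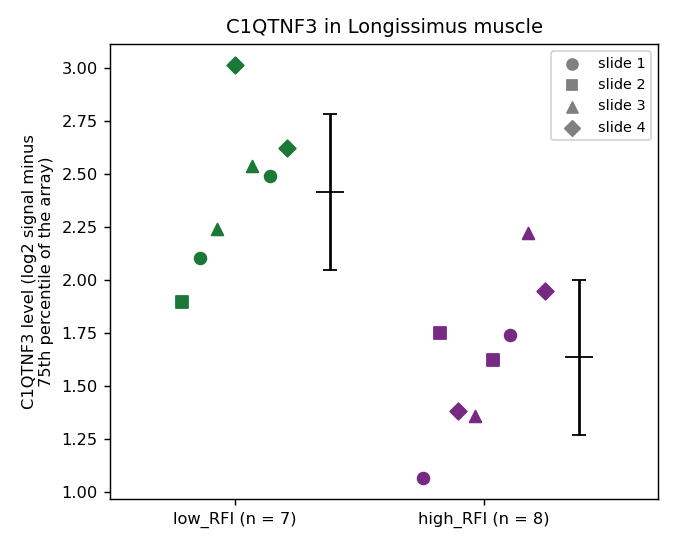
C1QTNF3 level (log2 signal minus the 75th percentile of the array) in each low_RFI pig (n = 7, left) and high_RFI pig (n = 8, right). Marker shapes give the slide, and bars give the mean and SD. Low_RFI pigs spanned 1.90 to 3.01 and high_RFI pigs 1.06 to 2.22.

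C1QTNF3 averaged 2.41 ± 0.37 in the low_RFI pigs and 1.63 ± 0.36 in the high_RFI pigs (SD, n = 7 and 8). That is a log2 difference of 0.78 ± 0.18 (SE), or 1.72-fold with a 95% interval of 1.32 to 2.24. After adjustment over all 31984 tested probes it did not pass (limma, adjusted p = 0.408), and it stayed above the threshold in all 30 alternatives with a test, at adjusted p from 0.196 to 0.661. Within slides 1 to 4 the difference was 0.89, 0.21, 0.60 and 1.15, and within the runs 1 to 8 and 55 to 62 it was 0.92 and 0.67. Low_RFI was higher on each slide and in each run. The slides and the runs divide the same pigs, and C1QTNF3 was listed with its difference known, so these signs are no separate support. The smallest gap, on slide 2, rests on 1 low_RFI pig and 2 high_RFI pigs.

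No gene of the set passed the test between lines. By limma 0 of the 16 probes passed an adjusted p of 0.05, and the same held for 0 of 31984 tested probes (0%), with a smallest adjusted p of 0.107. An exact permutation test over all 6435 splits of the pigs, adjusted in the same way, called 0 probes. It adds little, since its smallest possible p of 0.000155 can pass that adjustment only if many probes reach it. At an unadjusted p under 0.05 the set had 1 of 16 probes, that of C1QTNF3, against 2124 of all tested probes (6.64%), of which 3.65% of tested probes were higher in low_RFI and 2.99% higher in high_RFI. The precision differed widely between genes, as the plot of line differences shows: the widest interval of a receptor probe, that of ADIPOR2 probe 2389, ran from -0.45 to 0.13 on the log2 scale, and the narrowest of ADIPOQ, on probe 770, from -1.15 to 0.70.

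**Figure D2:**
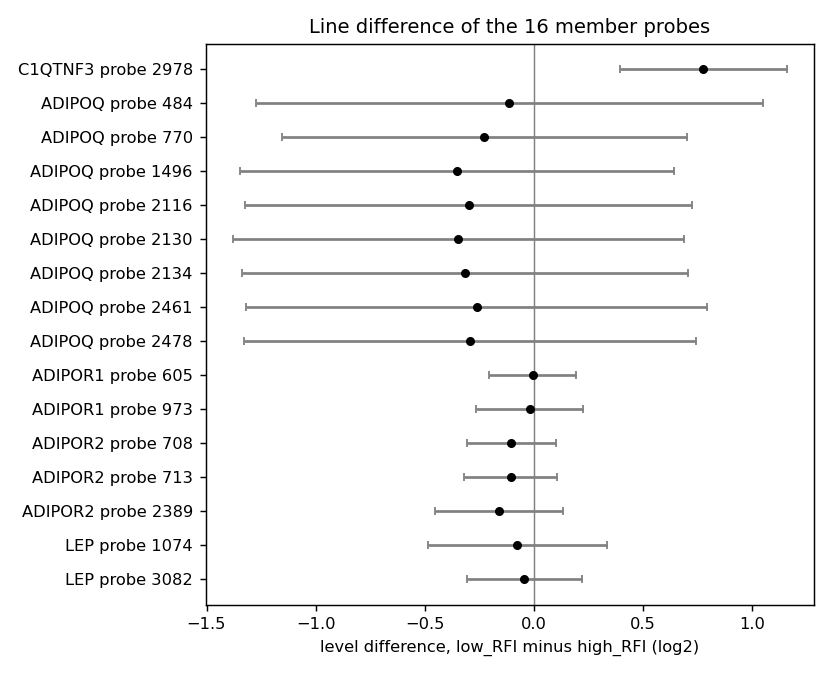
Level difference, low_RFI minus high_RFI (log2), of the 16 probes of the set, with 95% limma intervals (7 low_RFI pigs against 8 high_RFI pigs; ADIPOR2 probe 2389 had 6 against 8). The interval of C1QTNF3 runs from 0.40 to 1.16, and those of the other 15 probes include 0.

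ADIPOQ, on chromosome 13 from 124633906 to 124646237, was the gene of the set that varied most among pigs. The probe of highest mean level, number 2134, gave processed intensities of 288 to 2265 with a median of 803 in low_RFI, and of 337 to 3266 with a median of 957 in high_RFI. The groups overlapped over nearly their whole range. Across the 15 pigs the 8 probes spanned 7.11-fold to 11.7-fold in level, and their SDs, from 0.90 to 1.12, stood at the 97.1 to 98.8 percentile of tested probes, whose median SD was 0.28. The highest ADIPOQ levels on probe 2134 were 2.89 in high_RFI replicate 5, 2.58 in high_RFI replicate 7 and 2.52 in low_RFI replicate 1. The lowest were -0.38 in low_RFI replicate 5 and -0.05 in high_RFI replicate 3, so high and low pigs came from both lines.

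**Figure D3:**
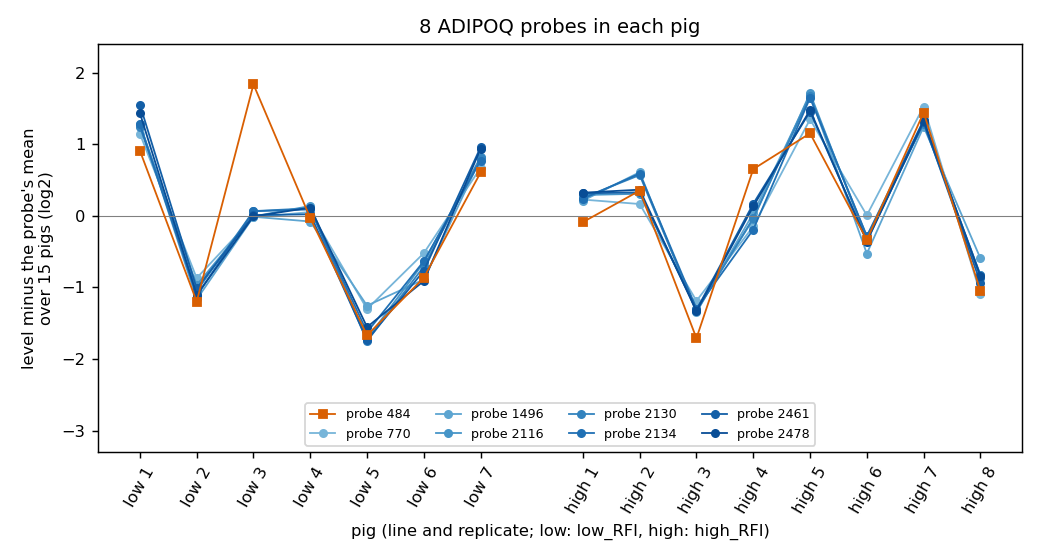
Level of the 8 ADIPOQ probes in each pig minus the mean of that probe over 15 pigs (log2), low_RFI pigs left and high_RFI pigs right; lines join the pigs only to guide the eye. Probes moved together, except probe 484 (orange), which was 1.84 above its mean in low_RFI replicate 3.

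The ADIPOQ probes ranked the pigs almost alike. Without probe 484, the 21 pairs of probes correlated at 0.952 to 0.998 over 15 pigs. Some of these probes overlap: probes 2116, 2130 and 2134 have runs of 29 to 43 bases in common, and probes 2461 and 2478 a run of 26. Probe 770, which shares no run of 12 or more bases with the others, still followed them. Probe 484 correlated with the others at 0.845 to 0.865, and low_RFI replicate 3 stood apart on it. In that pig probe 484 lay 0.99 below the mean of the other 7 probes on the log2 scale, against 2.15 to 3.23 below it in the other 14 pigs. Its intensity there was 222, the highest of any pig on this probe, while on probe 770 this pig stood at -0.02 from the mean of that probe.

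On probe 2134 ADIPOQ averaged 1.08 ± 1.03 in the low_RFI pigs and 1.39 ± 1.02 in the high_RFI pigs (SD, n = 7 and 8). The difference of -0.31 ± 0.48 (SE) was smaller than its error (limma, adjusted p = 0.984). All 8 probes had a negative difference, from -0.11 to -0.35, but they read the same RNA of the same pigs and are not independent. The 95% interval of probe 2134, 0.40-fold to 1.64-fold, leaves room for a moderate difference with low_RFI higher and a large one with low_RFI lower. The sign was not stable over slides, at -0.85, 0.16, -1.35 and 1.51 for slides 1 to 4, nor over runs, at 0.24 for numbers 1 to 8 and -0.95 for numbers 55 to 62. Slide 2 had the highest mean on all 8 probes, and on probe 2134 it was 2.42, against 0.79, 1.14 and 0.92 on slides 1, 3 and 4. Of 31718 probes, 4% had every pig of slide 2 highest, a stricter pattern that ADIPOQ probe 2134 did not meet. The share of all probes with the highest mean on slide 2 was not computed. The 3 pigs of slide 2 lay between 1.83 and 2.89, and the highest of the other 12 was at 2.58.

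Because fat cells are the known source of adiponectin, ADIPOQ was set against the mean level of 16 other adipocyte markers in each pig. The marker mean ran from 1.04 to 2.11 with a median of 1.33 in low_RFI and from 0.98 to 1.88 with a median of 1.46 in high_RFI, and 8 of the 16 markers were higher in each line. Of the 20 markers listed, 17 were on the array and PLIN1, the coat protein of the fat droplet, was well above background on only 2 arrays. ADIPOQ followed the marker mean over the 15 pigs (Pearson r = 0.798, permutation adjusted p = 0.0023; Spearman rho = 0.861, permutation adjusted p = 0.00075; 5 relations). Without the 2 pigs farthest from the median marker level, r was 0.829. It was 0.715 within low_RFI and 0.894 within high_RFI, and 0.875 and 0.846 within the runs 1 to 8 and 55 to 62. By exact permutation the subsets high_RFI and 1 to 8 passed adjustment (adjusted p = 0.0162 and 0.0286), and the subsets low_RFI and 55 to 62 did not (adjusted p = 0.158 and 0.127). With slide means removed, r was 0.820. In these bulk samples, fewer fat cells and less RNA per fat cell cannot be told apart.

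Single markers differed in how closely they went with ADIPOQ. CIDEC, a protein of the fat droplet surface, had r = 0.880, and CEBPA, a transcription factor of fat cell differentiation, had 0.828. DGAT2, which makes triglyceride, had 0.765, LIPE, the hormone-sensitive lipase, 0.704, and PPARG, the master regulator of fat cells, 0.694. PCK1 had 0.575. FABP4, the fatty acid carrier of fat cells, reached only 0.325. SCD, ACLY, CIDEA, FASN, LPL, AQP7 and PNPLA2 were also weak, from 0.058 to 0.410. GPD1 and AGPAT2, enzymes of the path to triglyceride, ran the other way at -0.493 and -0.495. Among 4534 gene symbols, the 5 whose levels were most like ADIPOQ over 15 pigs were MAL2 (0.916), CIDEC, CEBPA, ADIRF (0.790) and SDR16C5 (0.773). For MAL2 r was 0.913 within low_RFI and 0.922 within high_RFI. Here and for the genes below, such symbols are the highest of 4534 correlations over these same pigs. Their values within lines are no separate support, and none of these likenesses was tested.

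**Figure D4:**
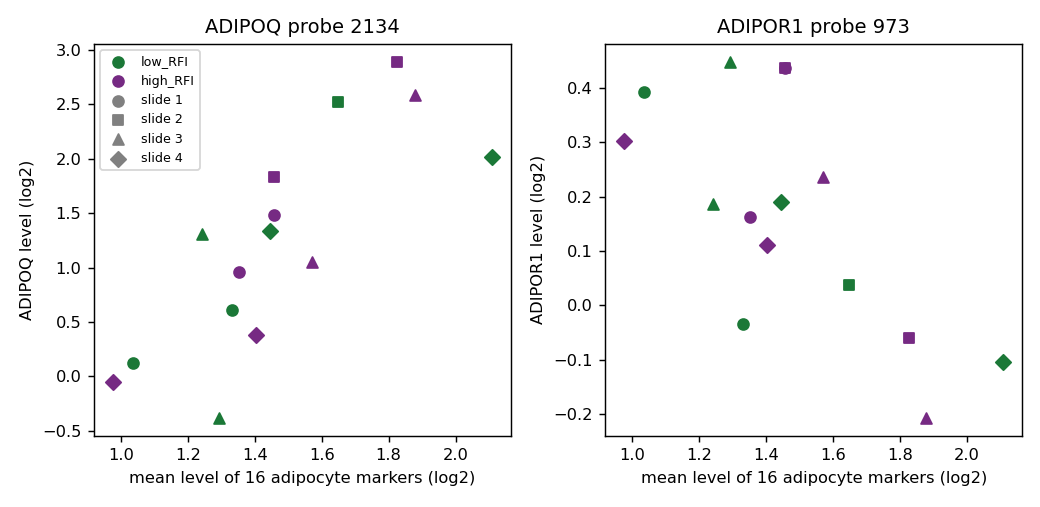
Levels (log2) of ADIPOQ probe 2134 (left) and ADIPOR1 probe 973 (right) against the mean level of 16 adipocyte markers, 1 point per pig, coloured by line and shaped by slide. ADIPOQ was higher (r = 0.798) and ADIPOR1 lower (r = -0.685) in pigs with a higher marker mean, over 15 pigs.

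ADIPOR1, the adiponectin receptor best known from muscle, lies on chromosome 10 from 24907491 to 24923540. On probe 973 its processed intensities were 351 to 515 with a median of 405 in low_RFI, and 292 to 538 with a median of 429 in high_RFI. The lines overlapped and their mean levels were 0.16 ± 0.21 for low_RFI and 0.18 ± 0.23 for high_RFI (SD, n = 7 and 8). The difference of -0.02 ± 0.12 (SE) has a 95% interval of 0.83-fold to 1.17-fold (limma, adjusted p = 0.997), and the interval of probe 605 was 0.87-fold to 1.15-fold. The receptor was thus among the steadier genes of the set, spanning 1.40-fold on probe 605 and 1.57-fold on probe 973 over 15 pigs.

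Within that narrow span, ADIPOR1 was lower in pigs with a higher adipocyte marker mean (r = -0.685, permutation adjusted p = 0.0115). The rank correlation did not pass (rho = -0.554, permutation adjusted p = 0.0585). It also did not pass without the 2 pigs farthest from the median marker level (rho = -0.434, permutation adjusted p = 0.175). Without the 2 farthest pigs r was -0.641 (permutation adjusted p = 0.0418). It was -0.740 within low_RFI and -0.659 within high_RFI, but -0.375 for numbers 1 to 8 against -0.729 for numbers 55 to 62, and in none of these subsets did it pass the adjusted threshold by exact permutation. Against ADIPOQ itself r was -0.589, which did not pass over the 10 pairs of genes (permutation adjusted p = 0.219). The 5 gene symbols most like ADIPOR1 were RANBP9 (0.902), SMARCD3, GAL3ST1, KEAP1 and ANKRD40 (0.854).

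ADIPOR2, the second adiponectin receptor, best known from liver, lies on chromosome 5 from 68755789 to 68807247. Probe 2389 gave processed intensities of 12876 to 21806 with a median of 14505 in 6 low_RFI pigs, and of 15171 to 20307 with a median of 16306 in 8 high_RFI pigs. The spot of low_RFI replicate 5 was dropped for non-uniformity. The highest pig, low_RFI replicate 7, belonged to the line with the lower median. Mean levels were 5.35 ± 0.36 for low_RFI and 5.51 ± 0.14 for high_RFI (SD, n = 6 and 8), a difference of -0.16 ± 0.14 (SE; limma, adjusted p = 0.940). The overlapping probes 708 and 713 were much dimmer, with processed intensities of 310 to 515 and 325 to 475 over both lines. Their differences were -0.10 and -0.11, with intervals of 0.81-fold to 1.07-fold and 0.80-fold to 1.08-fold. The sign for probe 2389 changed between slides, at -0.46, -0.43, 0.05 and 0.20. Probe 2389 correlated with probe 713 at 0.723 but with probe 708 at 0.414, although those probes share 55 of 60 bases. PDZD11 (0.862), MYF5, KPNA6, LRP12 and TCTN1 (0.759) were the gene symbols most like probe 2389.

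LEP, on chromosome 18 from 20106867 to 20124071, was detected on all arrays by both of its probes, and the probes disagreed. Probe 3082 gave processed intensities of 189 to 279 with a median of 217 in low_RFI, and of 194 to 314 with a median of 216 in high_RFI. Probe 1074, whose sequence is printed above, gave 33.2 to 78.6 with a median of 48.4 in low_RFI, and 37.1 to 81.3 with a median of 45.3 in high_RFI. Over 15 pigs the probes correlated at -0.128, with a rho of -0.364. Neither separated the lines: the difference was -0.04 ± 0.12 (SE) on probe 3082 and -0.07 ± 0.19 (SE) on probe 1074 (limma, adjusted p = 0.992 and 0.991).

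Levels of LEP went with the slide. On probe 3082 the 4 pigs of slide 1, from both lines, lay between -1.04 and -0.91, below all other 11 pigs, which lay between -0.81 and -0.22. The 3 pigs of slide 2, from -0.50 to -0.22, lay above all other 12 pigs. Of 31718 probes, 0.375% had every pig of slide 1 lowest and 4% had every pig of slide 2 highest. Probe 1074 did not follow this order: slide 1 there had the highest mean, -2.54, and slide 4 the lowest, -3.18. What set the slides apart was not tested. The correlation of LEP with ADIPOQ was 0.498 on probe 3082 (permutation adjusted p = 0.289) and 0.029 once slide means were removed. The gene symbols most like LEP probe 3082 were LPAR2 (0.855), HTT, CSN1S1, SIRPA and OCLN (0.847), with the slides shared by all of them.

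**Figure D5:**
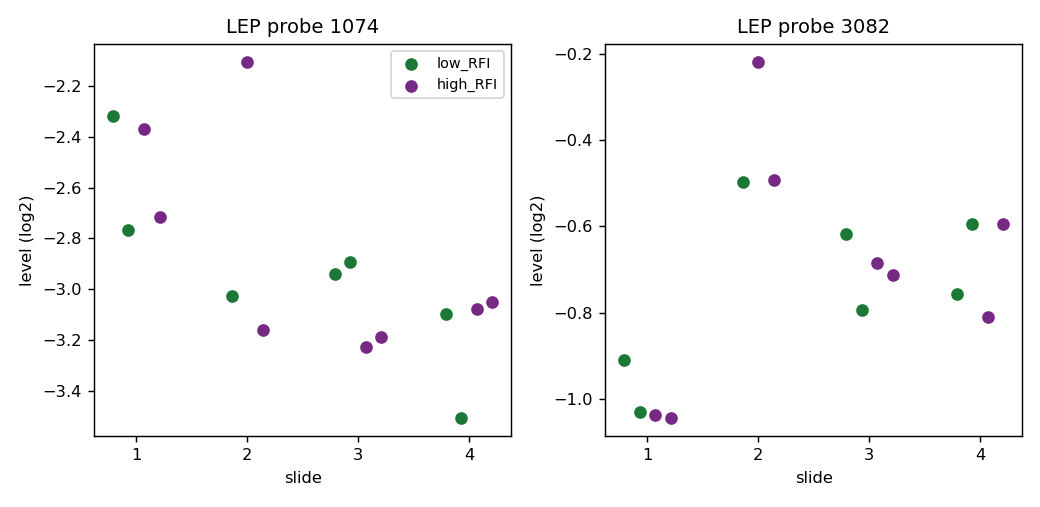
Level (log2) of LEP probe 1074 (left) and LEP probe 3082 (right) by slide, 1 point per pig, coloured by line. On probe 3082 slide 1 lies below and slide 2 above the other pigs, and on probe 1074 slide 1 has the highest mean.

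LEPR, the leptin receptor, on chromosome 6 from 146802297 to 146896152, had processed intensities of 1.68 to 5.25 in low_RFI and 1.33 to 9.51 in high_RFI. With its single probe not well above background in any pig, no difference is given, and LEPR isoforms that lack the probed stretch were not assessed. LEPROT, which shares its first exons with LEPR in humans, was measured and averaged 2.92 ± 0.14 for low_RFI and 2.85 ± 0.14 for high_RFI (SD, n = 7 and 8).

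The r of C1QTNF3 was 0.148 with the adipocyte marker mean and -0.066 with ADIPOQ, and 0 of the 10 pairs among the 5 measured genes passed. Single adipocyte markers went either way with C1QTNF3, from -0.507 for PNPLA2, the first lipase of stored fat, to 0.589 for FASN, the fatty acid synthase. Connective tissue could also carry C1QTNF3, so its markers are given. The mean of 7 fibroblast markers ran from 1.18 to 1.91 in low_RFI and from 0.99 to 1.72 in high_RFI. The mean of the 3 tested cartilage and tendon markers, of 11 listed, ran from -0.90 to 0.37 in low_RFI and from -1.33 to -0.43 in high_RFI. Of the fibroblast markers 4 were higher in low_RFI and 3 in high_RFI, and of the cartilage and tendon markers 2 and 1. TNMD, a tendon membrane protein, and LUM, a matrix proteoglycan, were picked after their values were seen: they were 0.99 ± 0.46 (SE) and 0.45 ± 0.21 (SE) higher in low_RFI, without passing adjustment (limma, adjusted p = 0.744 and 0.748). Those higher in high_RFI were COL1A2, FBN1, POSTN and ACAN, with differences from -0.12 to -0.07. Only 3 of the 6 tested POSTN probes and 2 of the 3 tested ACAN probes had this direction. Over 15 pigs C1QTNF3 had r = 0.604 with TNMD and 0.448 with COL3A1, and -0.139 to 0.284 with the other 8 connective markers. Their part in the C1QTNF3 difference was not tested.

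The gene symbols most like C1QTNF3 over 15 pigs were ANGPT1 (0.819), INTS14 (0.803), IL5, POFUT1 and TMEM254 (0.786). As the highest of 4534 correlations in these same pigs they were not tested, and their values within lines are no separate support. All 5 also had higher mean levels in low_RFI, by 0.20 to 0.69 on the log2 scale, and these correlations pool both lines. For ANGPT1, a growth factor for blood vessels, r was -0.02 within low_RFI and 0.83 within high_RFI. For INTS14, a subunit of the Integrator complex, it was 0.873 within low_RFI and 0.947 within high_RFI.

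Other genes of these pathways gave no call at an adjusted p of 0.05, and their directions were mixed. Of 10 tested members of the C1q and TNF related family, 3 were higher in low_RFI and 7 in high_RFI, with a median difference of -0.15, against 2471 and 2064 of all 4535 gene symbols and a median of 0.01. Of the 4 other tested genes with the C1QTNF name, C1QTNF1 had 0.09 ± 0.11 (SE), C1QTNF2 -0.15 ± 0.16 (SE), C1QTNF6 -0.16 ± 0.16 (SE) and C1QTNF7 -0.15 ± 0.19 (SE). The other of the 2 tested C1QTNF6 probes went the other way. EMILIN1 and CBLN3 had 0.10 and -0.29. The 4 tested relatives of the adiponectin receptors had small differences, from -0.09 for PAQR7 to -0.001 for CDH13, the adiponectin binding cadherin on vessels, with PAQR8 and PAQR6 between them. For CDH13 and PAQR8 the other tested probe went the other way.

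Among 15 tested genes of adiponectin signalling, a list that also holds ERP44 and ERO1A, which act in its assembly and release, 7 were higher in low_RFI and 8 in high_RFI. At an unadjusted p under 0.05, 0 were higher in low_RFI and 3 in high_RFI, against 176 and 132 of all gene symbols. CPT1B, which brings fatty acids into muscle mitochondria, averaged 1.07 ± 0.17 for low_RFI and 1.60 ± 0.25 for high_RFI (SD, n = 7 and 8), a difference of -0.53 ± 0.11 (SE; limma, adjusted p = 0.311). PPARGC1A, a coactivator of mitochondrial genes, and PRKAG1, a regulatory subunit of AMP-activated kinase, had -0.40 and -0.26, and the catalytic subunit PRKAA2 had 0.19. None of these 4 passed.

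Among 13 tested genes of leptin signalling, 8 were higher in low_RFI and 5 in high_RFI. SOCS3, the inhibitor that leptin signalling induces, averaged -0.36 ± 1.03 for low_RFI and 0.64 ± 0.81 for high_RFI (SD, n = 7 and 8). Its difference of -0.997 ± 0.43 (SE) did not pass (limma, adjusted p = 0.730), and neither did JAK2, the kinase bound to LEPR, at 0.37 ± 0.15 (SE). Of the 2 tested JAK2 probes, the other went the other way. SH2B1, an adaptor of JAK2, had -0.22 and PTPN2, a phosphatase, 0.14. Of 8 other hormones of fat cells, 3 were higher in low_RFI and 5 in high_RFI. AGT, angiotensinogen, had -0.61 ± 0.21 (SE; limma, adjusted p = 0.579) and RARRES2, chemerin, -0.20 ± 0.09 (SE), with NAMPT at 0.13.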

How the data were processed

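RNA of 15 pigs was measured on one-colour Agilent arrays. Per the file headers, the deposited intensity values come from Feature Extraction 10.7.3.1, and other columns per the file headers hold the flags for background, non-uniformity and saturation. The log2 values deposited by the authors were found to be the log2 processed signal minus the median of each array over 29364 spots, with a largest difference of 4.93e-08, and per the submitters' processing notes R 2.10.0 was used. It served as an alternative.

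Control spots and spots flagged as non-uniform were left out, spots of 1 probe were averaged, and log2 processed signal was centred on the 75th percentile of non-control probes. Probes well above background on at least 7 of 15 arrays with at least 4 values per line were tested (31984 of 43603). The difference of low_RFI minus high_RFI was fitted by limma 3.58.1 (R 4.3.3, data.table release 1.17.8, statmod 1.5.0), two-sided, with Benjamini-Hochberg adjustment over all tested probes, and the fit was tested on simulated data. Correlations used 100000 permutations, or all of them within subsets, with adjustment over 10 pairs or 5 relations. Among the tested probes of a gene, the one of highest mean level stands for it. Symbols came from the files or from the RefSeq annotation of Sscrofa11.1. Of all probes, 11830 had 1 gene symbol, 313 only a LOC name, 113 several genes and 31347 none. Python 3.11.15 with pandas 2.3.3 and matplotlib 3.10.9 copied sequences and drew figures.

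The genes named are all 6 listed genes, from each pathway list the 4 tested genes of smallest p (1 of which is not reported here), and for each measured gene the 5 most correlated symbols. Other genes named are adipocyte or connective tissue markers, LEPROT, C1QTNF1 and C1QTNF7 for their shared name, ERP44 and ERO1A, and genes mentioned as background. The 6 genes and all lists were chosen with earlier results of these data known. Alternatives covered background correction (normexp, offset 50), scaling, the deposited values, filters, blocks, model, probe choice and each pig left out. Per the labels each array is 1 pig. Same-numbered pigs of the lines were not treated as pairs, since not every such pair correlated above 0.1 in its deviations. Precision is set by the number of pigs, and the median SE of a difference was 0.14.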

Additional observations from a re-analysis of the deposited data

Results flagged for a closer look

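ADIPOQ probe 484 minus the mean of the other 7 ADIPOQ probes was -0.99 in low_RFI replicate 3. This pig was flagged because the gap to the nearest of the other low_RFI pigs, which was at -2.90, took 0.860 of the range of the line, above the 95% limit of Dixon's test for 7 pigs. It was 1 of 34 sets of pigs examined in this way, and this offset was added after the data were seen. Such a limit flags about 1 set in 20 by chance. Without probe 484 the other ADIPOQ probes placed this pig near their means. The cause was not tested.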

How the results depend on the processing

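Precision was limited by 7 and 8 pigs, and C1QTNF3 and LEPR rested on single probes. LEP and ADIPOQ also showed the slide patterns described above. C1QTNF3 kept its sign in all alternatives and never passed: 0.68 to 0.86 with each pig left out, 0.82 with the replicate block, 0.21 within slide 2 and 1.15 within slide 4. With each pig left out ADIPOQ ran from -0.56 to -0.07, ADIPOR1 from -0.073 to 0.026, ADIPOR2 from -0.26 to -0.08 and LEP from -0.092 to 0.025. The replicate block gave -0.46 for ADIPOQ, -0.03 for ADIPOR1, -0.19 for ADIPOR2 and -0.03 for LEP and changed no call. Same-numbered pigs correlated at -0.01 to 0.27 in their deviations, 5 of 7 above 0.1, and 1 of 7 correlated best with its own number. The sign turned for ADIPOR1 with normexp (0.0014) and for LEP with array weights (0.0096). Within slides ADIPOQ was -1.35 on slide 3 and 1.51 on slide 4, ADIPOR1 was 0.30 on slide 3, and ADIPOR2 was -0.46, -0.43 and 0.20 on slides 1, 2 and 4.

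Probes called over the whole array numbered 0 except without a filter on dim probes (1, higher in low_RFI), with 1 probe per gene symbol (1, higher in high_RFI) and without low_RFI replicate 7 (2, both higher in high_RFI), and the range with each pig left out was 0 to 2. None of them stands for a gene of the set.

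Correlations that never passed also turned sign. Without the 2 farthest pigs C1QTNF3 had -0.083 with ADIPOR2, -0.196 with LEP and -0.253 with the adipocyte marker mean, and ADIPOR1 had 0.295 with ADIPOR2. Within low_RFI C1QTNF3 had -0.243 with LEP. Within high_RFI C1QTNF3 had 0.298 with ADIPOQ, and ADIPOR2 had -0.065 with ADIPOQ, 0.023 with ADIPOR1 and -0.188 with the marker mean. Within numbers 1 to 8 C1QTNF3 had 0.101 with ADIPOQ and -0.022 with the marker mean, and ADIPOR1 had 0.128 with ADIPOR2. Within numbers 55 to 62 C1QTNF3 had 0.064 with ADIPOR1, -0.0030 with ADIPOR2 and -0.158 with LEP. With normexp C1QTNF3 had 0.031 with ADIPOQ and -0.216 with LEP, and ADIPOR2 had -0.088 with LEP. With the mean of all probes of a gene C1QTNF3 had -0.228 with ADIPOR2 and -0.253 with LEP, and LEP had 0.518 with ADIPOR1 and -0.249 with the marker mean. The causes were not tested. By Pearson's r the 2 correlations with the marker mean that passed, for ADIPOQ and ADIPOR1, passed in all 4 alternatives over both lines that were tested. They missed the threshold in 2 and 4 of the 4 subsets, respectively. By Spearman's rho ADIPOQ passed in the same 4 alternatives, and ADIPOR1 did not pass in any of them (permutation adjusted p from 0.0553 to 0.175).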
